A study of Homo sapiens with 3 samples.

Results

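The miR-130 and miR-301 seed family was examined through 5 mature miRNAs out of the 2588 that the deposited tables list. They were chosen by name, as hsa-miR-130a-3p, hsa-miR-130b-3p, hsa-miR-130b-5p, hsa-miR-301a-3p and hsa-miR-454-3p, and each had 1 locus. Small RNA was sequenced from 3 untreated human cancer cell lines: the thyroid line C643, the ovarian line ES-2 and the liver line Huh-7. All were unedited parental cells taken 48 h after seeding, and each line gave 1 library, so no difference below has a replicate check and intervals cover counting error only. The libraries held 8183100 miRNA reads in C643, 2173587 in Huh-7 and 1663181 in ES-2. The liver miRNAs miR-122-5p and miR-885-5p together held 13.8% of reads in Huh-7, 0.00587% in C643 and 0.000361% in ES-2. The 5 epithelial miRNAs of the miR-200 family summed to 8306 reads in Huh-7 (0.382%, none at 0), 102 in C643 (0.00125%, 4 of 5 at 0) and 87 in ES-2 (0.00523%, 1 of 5 at 0). Most of the 8306 reads, 6558, came from miR-200b-3p alone. By share miR-141-3p went the other way, with 4 reads for the liver line (0.000184%) and 7 for the ovarian line (0.000421%). The intervals of these shares overlapped. No defining miRNA was taken for thyroid or ovary. The blood cell miRNAs miR-451a and miR-223-3p had together 0 reads in C643 and 1 read in each of the other lines.

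The hairpin from which a miRNA is processed can yield a product of its 5′ arm, named 5p, and of its 3′ arm, named 3p. The product loaded into Argonaute pairs with target mRNAs mainly through its seed, bases 2 to 8 from the 5′ end, so miRNAs with the same seed can repress the same mRNAs. The 3p arms of the miR-130 and miR-301 precursors and of miR-454 form such a family, and SMAD4, a transducer of TGF-beta signaling, is among its described targets.

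Seeds are shown for the members and for hsa-miR-301b-3p, which is not a member, because the seed of the 3p arms defines the family. Mature sequences were taken from RefSeq (GRCh38.p14), in which 4 of the 5 members matched, and hsa-miR-130a-3p is named only. The seed of each miRNA is in capitals.
hsa-miR-130b-3p: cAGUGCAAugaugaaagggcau
hsa-miR-301a-3p: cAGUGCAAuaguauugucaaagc
hsa-miR-454-3p: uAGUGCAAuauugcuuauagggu
hsa-miR-301b-3p: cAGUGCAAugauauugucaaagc
hsa-miR-130b-5p: aCUCUUUCccuguugcacuac

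The listed 3p arms with a sequence had the seed AGUGCAA. hsa-miR-454-3p began with U, whereas hsa-miR-130b-3p and hsa-miR-301a-3p began with C. hsa-miR-130b-5p, although listed with the family, carried the seed CUCUUUC and shared it with none of the other miRNAs among the 2281 with a sequence. It is the opposite arm of MIR130B and is therefore treated apart from the seed family below. Its bases 13 to 19 are the reverse complement of the 3p seed, and the 5p arm of miR-301a has the same match at the same bases. The 5p arms of miR-454 and miR-130a do not contain these letters. Here the match is in capitals.
hsa-miR-130b-5p: acucuuucccugUUGCACUac
hsa-miR-301a-5p: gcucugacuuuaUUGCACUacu
hsa-miR-454-5p: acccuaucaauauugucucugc
hsa-miR-130a-5p: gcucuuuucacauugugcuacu

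The members come from 3 places in the genome (GRCh38, GENCODE version 29). MIR301A lies on chromosome 17 at 59151136 to 59151221 and MIR454 at 59137758 to 59137872, both on the minus strand. Both sit in introns of SKA2, which runs from 59109951 to 59155269 on the same strand and encodes a subunit of the spindle and kinetochore associated complex. The hairpins are 13263 bases apart, and MIR21, on the plus strand, lies 703393 bases from MIR454. MIR130B is found on chromosome 22 from 21653304 to 21653385, on the plus strand, in an exon of the non-coding transcript gene AP000553.1, and MIR301B ends 245 bases upstream of it. MIR130A is found on chromosome 11 from 57641198 to 57641286, also on the plus strand, within the non-coding gene AP000662.1 and outside its exons.

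A single miRNA, hsa-miR-454-3p, made up most of the seed family in each line, and the family was a small part of each library. Summed, the 4 listed 3p arms held 0.0474% of miRNA reads in C643 (Wilson 95% interval 0.0459 to 0.0489, 3877 reads). In ES-2 they held 0.130% (0.125 to 0.136, 2163 reads). The share in Huh-7 was 0.239% (0.232 to 0.245, 5186 reads). By share of its own library, the sum was thus lowest in C643 and highest in Huh-7, and the intervals did not overlap. Whether ES-2 or Huh-7 came first depended on the scaling, since the deposited values summed to 454 units in C643, 1460 in Huh-7 and 1502 in ES-2. Counting error does not separate the sums of ES-2 and Huh-7 on that scale.

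Among all seed families with reads, that with AGUGCAA ranked 55 of 495, 31 of 463 and 31 of 660 in the thyroid, ovarian and liver lines. In this ranking hsa-miR-130a-3p was added by its listing, miR-301b-3p was included in Huh-7, and the miRNAs with a sequence covered 96.1%, 97.3% and 92.7% of reads. The family stood between those led by miR-484 and miR-99b-3p in C643, by miR-148b-3p and miR-503-5p in ES-2, and by miR-1269a and miR-28-3p in Huh-7. For scale, miR-21-5p, the miRNA targeted in the study, had 815 times the reads of hsa-miR-454-3p in C643, 173 times in Huh-7 and 231 times in ES-2.

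hsa-miR-454-3p supplied 74.1% (72.7 to 75.5), 93.8% (92.7 to 94.7) and 80.9% (79.8 to 81.9) of the summed 3p reads in the thyroid, ovarian and liver lines. hsa-miR-130b-3p supplied 19.9%, 4.02% and 11.7% in the same order. hsa-miR-130a-3p supplied 4.08%, 0.878% and 6.48%. hsa-miR-301a-3p was the least in C643 and Huh-7, with 1.91% and 0.926%, and in ES-2 its 1.34% (0.935 to 1.92) overlapped the interval of hsa-miR-130a-3p (0.563 to 1.37). The mature sequences are 22 or 23 bases long in the 3p arms printed above, and reads were not divided by length. Reads of different miRNAs in a library can also differ by how well each ligates to the adapters, which was not tested.

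**Figure D1:**
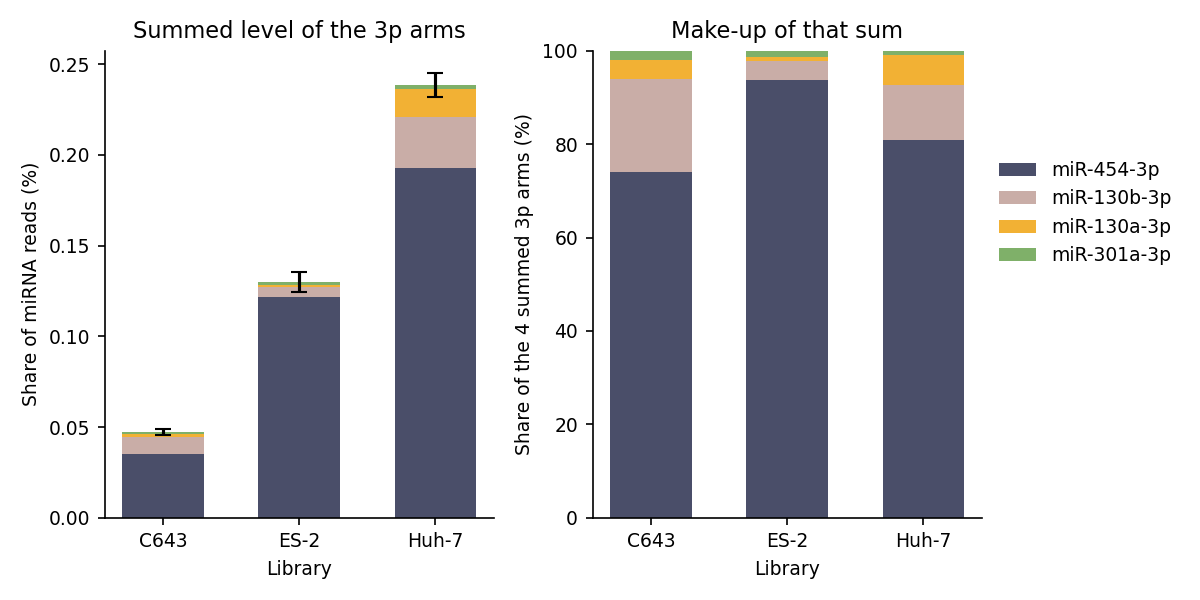
Left, share of miRNA reads (%) held by the 4 listed 3p arms stacked by miRNA in each library, with the Wilson 95% interval of the sum; right, the same reads as a percent of that sum. The total runs from 0.0474% in C643 to 0.239% in Huh-7, and miR-454-3p fills between 74.1% and 93.8% of each bar.

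hsa-miR-454-3p had 2874, 2028 and 4194 reads in the thyroid, ovarian and liver lines. Its share was 0.0351% (0.0339 to 0.0364), 0.122% (0.117 to 0.127) and 0.193% (0.187 to 0.199), which placed it at rank 98, 53 and 53 of all miRNAs. C643 was thus the low line for this miRNA, and no intervals overlapped. By share C643 was 3.47-fold below ES-2 (95% interval 3.28 to 3.67) and 5.49-fold below Huh-7 (5.24 to 5.76).

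hsa-miR-130b-3p had 771, 87 and 608 reads in these lines. These gave shares of 0.00942% (0.00878 to 0.0101), 0.00523% (0.00424 to 0.00645) and 0.0280% (0.0258 to 0.0303). Its order was therefore another than that of hsa-miR-454-3p, with ES-2 lowest, and by share Huh-7 exceeded ES-2 5.35-fold (4.27 to 6.69) and C643 2.97-fold (2.67 to 3.30).

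hsa-miR-130a-3p, described elsewhere as an endothelial and hematopoietic miRNA, had 158, 19 and 336 reads in the thyroid, ovarian and liver lines. Its shares were 0.00193% (0.00165 to 0.00226), 0.00114% (0.000731 to 0.00178) and 0.0155% (0.0139 to 0.0172). Huh-7 stood apart, 13.5-fold above ES-2 by share (8.52 to 21.5) and 8.01-fold above C643 (6.63 to 9.67), whereas the share intervals of C643 and ES-2 overlapped and C643 was 1.69-fold above ES-2 (1.05 to 2.72).

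hsa-miR-301a-3p was the scarcest member in C643 and had 74, 29 and 48 reads in the thyroid, ovarian and liver lines. Its shares were 0.000904% (0.00072 to 0.00114), 0.00174% (0.00121 to 0.0025) and 0.00221% (0.00167 to 0.00293), at ranks 319, 246 and 290. ES-2 and Huh-7 were not separable at this depth, and C643 lay below both. Its paralog miR-301b-3p is equal to it at 21 of 23 positions, so reads with mismatches could have been given to either.

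hsa-miR-130b-5p was the most abundant member in C643 and second to hsa-miR-454-3p in ES-2 and Huh-7. It had 11528, 1190 and 3874 reads in the thyroid, ovarian and liver lines. Its shares were 0.141% (0.138 to 0.143), 0.0715% (0.0676 to 0.0757) and 0.178% (0.173 to 0.184), at ranks 61, 70 and 56. Its shares spanned 2.49-fold between the lowest and the highest line, the smallest span of the members apart from the 2.44-fold of hsa-miR-301a-3p. In C643 it had 4.01 times the reads of hsa-miR-454-3p (3.85 to 4.18), against 0.924 times in Huh-7 and 0.587 times in ES-2.

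**Figure D2:**
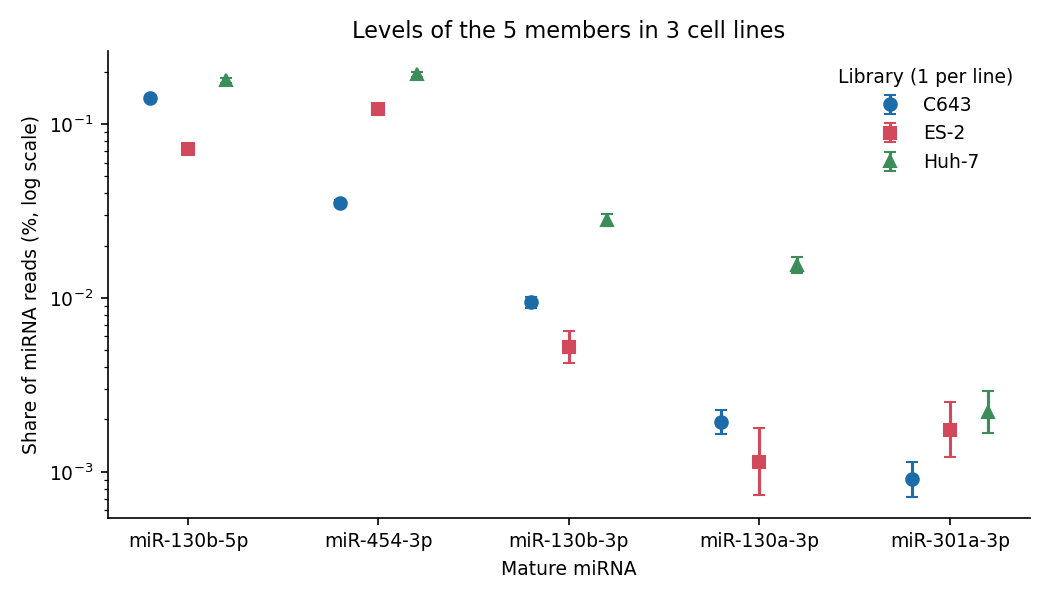
Share of miRNA reads (%, log scale) of each member in the 3 libraries, with Wilson 95% intervals that cover counting error only. miR-130b-5p and miR-454-3p lie above the other members in each line, ES-2 is lowest for miR-130b-5p, miR-130b-3p and miR-130a-3p, and C643 is lowest for miR-454-3p and miR-301a-3p.

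Arms of the same precursor were compared within each library, where the scaling between libraries cancels. The precursor with its arms in capitals is shown for MIR130B, in which the 5p arm led, and for MIR454, in which the 3p arm led.
MIR130B: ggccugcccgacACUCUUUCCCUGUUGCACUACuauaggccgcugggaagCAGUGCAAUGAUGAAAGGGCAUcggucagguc
MIR454: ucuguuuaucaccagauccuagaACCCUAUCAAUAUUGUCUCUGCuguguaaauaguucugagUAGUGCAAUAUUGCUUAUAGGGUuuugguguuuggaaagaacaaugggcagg

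For miR-130b, the arm with the family seed was the minor product in each line. hsa-miR-130b-5p exceeded hsa-miR-130b-3p 15.0-fold in C643 (13.9 to 16.1), 6.37-fold in Huh-7 (5.85 to 6.94) and 13.7-fold in ES-2 (11.0 to 17.0). The 3p arm held 6.27% of the reads of both arms in C643 (5.85 to 6.71), 13.6% in Huh-7 (12.6 to 14.6) and 6.81% in ES-2 (5.56 to 8.33). C643 and ES-2 overlapped, and Huh-7 was higher than either.

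miR-454 and miR-130a led with the 3p arm. For miR-454 it held 84.5% in C643 (83.2 to 85.7), 96.8% in Huh-7 (96.3 to 97.3) and 98.2% in ES-2 (97.5 to 98.7). The 5p arm of miR-454, with 528, 38 and 137 reads in the thyroid, ovarian and liver lines, did not follow the 3p arm, since it held 0.00645% of all reads in C643 and 0.00630% in Huh-7. For miR-130a the 3p arm held 77.1% in C643 (70.9 to 82.3), 88.7% in Huh-7 (85.1 to 91.5) and 95% in ES-2 (76.4 to 99.1, with 1 read of the 5p arm).

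miR-301a used both arms. Its 3p arm held 36.8% in C643 (30.5 to 43.7), so the 5p arm led there with 127 against 74 reads. In ES-2 it held 56.9% (43.3 to 69.5) and in Huh-7 60.8% (49.7 to 70.8), and neither interval excluded an equal split.

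C643 thus had the lowest 3p percent for each of the 4 precursors, although its interval overlapped that of ES-2 for miR-130b, miR-130a and miR-301a. Across 91 precursors with at least 100 reads of both arms in each library, the 5p arm led in all lines for 49, or 53.8%, so a leading 5p arm as in miR-130b was common. The leading arm changed between lines for 4, or 4.40%. miR-130a and miR-301a fell short of 100 reads in ES-2, and miR-301a also in Huh-7, so neither is among the 91. The 3p percent of miR-130b spanned 7.30 percentage points over the lines and that of miR-454 13.7, against a median of 2.27, and 21 and 12 of the 91 precursors spanned more. The median percent of the minor arm over these precursors differed between libraries too, at 2.68% in C643, 1.40% in Huh-7 and 2.15% in ES-2. Its part in the differences of arm percent between lines was not tested. The minor 5p arms of miR-454 and miR-130a were highest in C643, as that median was, whereas the minor 3p arm of miR-130b was lowest there. The 3p percent was highest in C643 for 26 of the 49 precursors led by 5p. Among the 38 precursors led by 3p in all lines, the 3p percent was lowest in C643 for 20, as it was for miR-454.

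**Figure D3:**
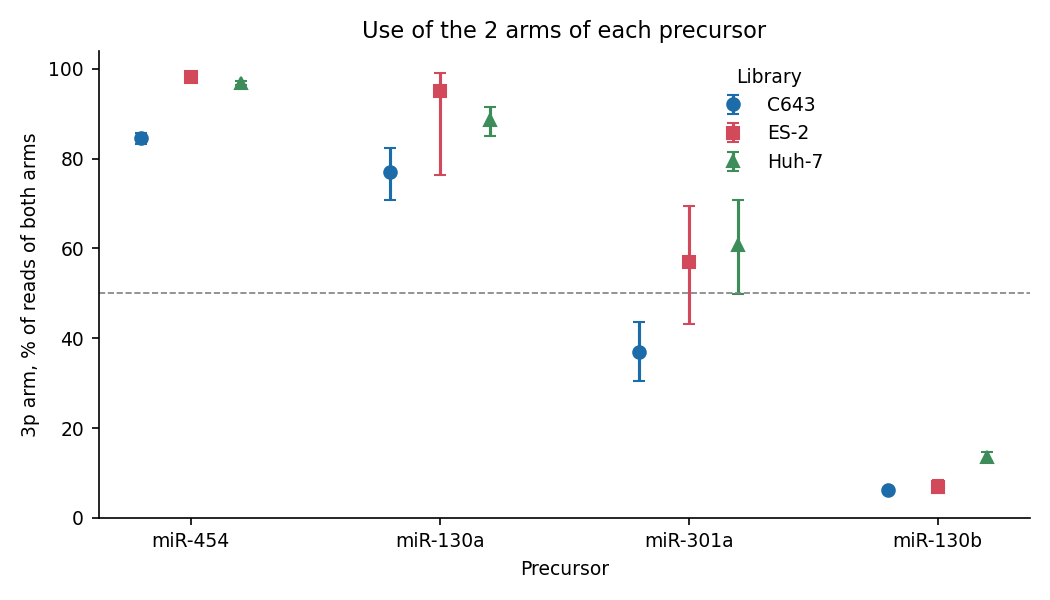
Reads of the 3p arm as a percent of the reads of both arms for each precursor and library, with Wilson 95% intervals and a dashed line at 50%. miR-130b lies between 6.27% and 13.6%, and miR-454 between 84.5% and 98.2%. miR-301a lies below the dashed line in C643 and above it in the other lines, where its intervals include 50%.

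The miRNAs of the shared host gene SKA2 were unequal in reads. hsa-miR-454-3p exceeded hsa-miR-301a-3p 38.8-fold in C643 (30.9 to 48.9), 87.4-fold in Huh-7 (65.8 to 116) and 69.9-fold in ES-2 (48.6 to 101). hsa-miR-301a-3p was 2.51% of their joint reads in C643 (2.0 to 3.14), 1.13% in Huh-7 (0.855 to 1.5) and 1.41% in ES-2 (0.983 to 2.02). The interval of ES-2 overlapped those of both other lines, whereas those of C643 and Huh-7 did not overlap. With both arms summed, MIR454 exceeded MIR301A 16.9-fold, 40.5-fold and 54.8-fold in the thyroid, ovarian and liver lines. The gap was narrower between the 5p arms, where miR-454-5p exceeded miR-301a-5p 4.16-fold in C643, 4.42-fold in Huh-7 and 1.73-fold in ES-2.

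The neighbour of MIR130B on chromosome 22 was scarcely seen. miR-301b-3p had no read in C643, which allows a share of up to 3.67e-05% when the limit is set at 3 reads of the total, none in ES-2, which allows 0.00018% by the same limit, and 10 in Huh-7. miR-301b-5p had 0, 12 and 10 reads. In Huh-7 hsa-miR-130b-3p had 60.8 times the reads of miR-301b-3p (32.9 to 112). The remaining miRNAs with the seed AGUGCAA, miR-3666 and miR-4295, had 0 reads in each library, so adding all miRNAs with the seed left the sum as it was in C643 and ES-2.

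Between libraries, members were compared as differences of log2(deposited value + 1), over miRNAs at 10 units or more in either library, and a difference of 2 or more counted as 4-fold. All 5 members passed this filter in each comparison. For hsa-miR-301a-3p, at 8.67 units in C643, this was only through the other library in both comparisons with C643. In ES-2 against Huh-7, which share a table, 1 of the 5 members was at least 4-fold apart, against 47.2% of the 390 miRNAs compared. This was hsa-miR-130a-3p, at 13.2 units against 94.6 in Huh-7, which is -2.75 on the log2 scale. hsa-miR-130b-3p followed with -1.49, hsa-miR-130b-5p with -0.40, hsa-miR-454-3p with 0.25 and hsa-miR-301a-3p with 0.54. The median was -0.40 over the members and -0.54 over all miRNAs compared. Of all miRNAs called, ES-2 was the higher library for 76 and Huh-7 for 108, or 65 and 181 by share.

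Scaling to the library total lowers every log2 ratio of ES-2 over Huh-7 by 0.92 before 1 is added to the values. With 1 added, the differences became -3.65, -2.40, -1.32, -0.66 and -0.32 in the same order. hsa-miR-454-3p and hsa-miR-301a-3p were therefore higher in ES-2 on the deposited scale and higher in Huh-7 by share, and no direction can be given for them. hsa-miR-130a-3p and hsa-miR-130b-3p were higher in Huh-7 on both scales and with the median ratio of all miRNAs set to 1, at -2.48 and -1.21. An exact binomial test on the reads compared these libraries and not the lines, and took equal values on the deposited scale as its null. At an adjusted p of 0.05 it called 4 of the 5 members, all but hsa-miR-301a-3p (adjusted p = 0.112), against 88.2% of all miRNAs compared. Its call of hsa-miR-454-3p, as higher in ES-2, holds for that scale only, since the direction is the opposite by share.

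The values of C643 were deposited apart from the others and may be normalized separately, so its differences are only described. Against ES-2, 1 of the 5 members was at least 4-fold apart, against 26.2% of 351 miRNAs. This was hsa-miR-454-3p, with 337 units in C643 and 1408 in ES-2 and a log2 difference of -2.06, which became -1.79 by share. hsa-miR-301a-3p stood at -1.13, and hsa-miR-130a-3p, hsa-miR-130b-3p and hsa-miR-130b-5p at 0.46, 0.57 and 0.71. The 3p arms of the SKA2 miRNAs were thus lower in C643 than in ES-2 and the other members higher, on the deposited scale and by share. For hsa-miR-130a-3p, with 19 reads in ES-2, counting error does not separate the libraries on the deposited scale. The 5p arm of miR-454 was not lower in C643, with 61.9 units against 26.4 in ES-2.

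Against Huh-7, 1 of the 5 members was at least 4-fold apart in C643, against 47.6% of 399 miRNAs. This was hsa-miR-130a-3p at -2.29, followed by hsa-miR-454-3p at -1.81, hsa-miR-130b-3p at -0.91 and hsa-miR-301a-3p at -0.59. hsa-miR-130b-5p had 1351 units in C643 and 1091 in Huh-7, a difference of 0.31 that turned to -0.34 by share. The 4 listed 3p arms were lower in C643 on both scales. Of all miRNAs called, C643 was the higher library for 90 and Huh-7 for 100, or 77 and 157 by share.

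**Figure D4:**
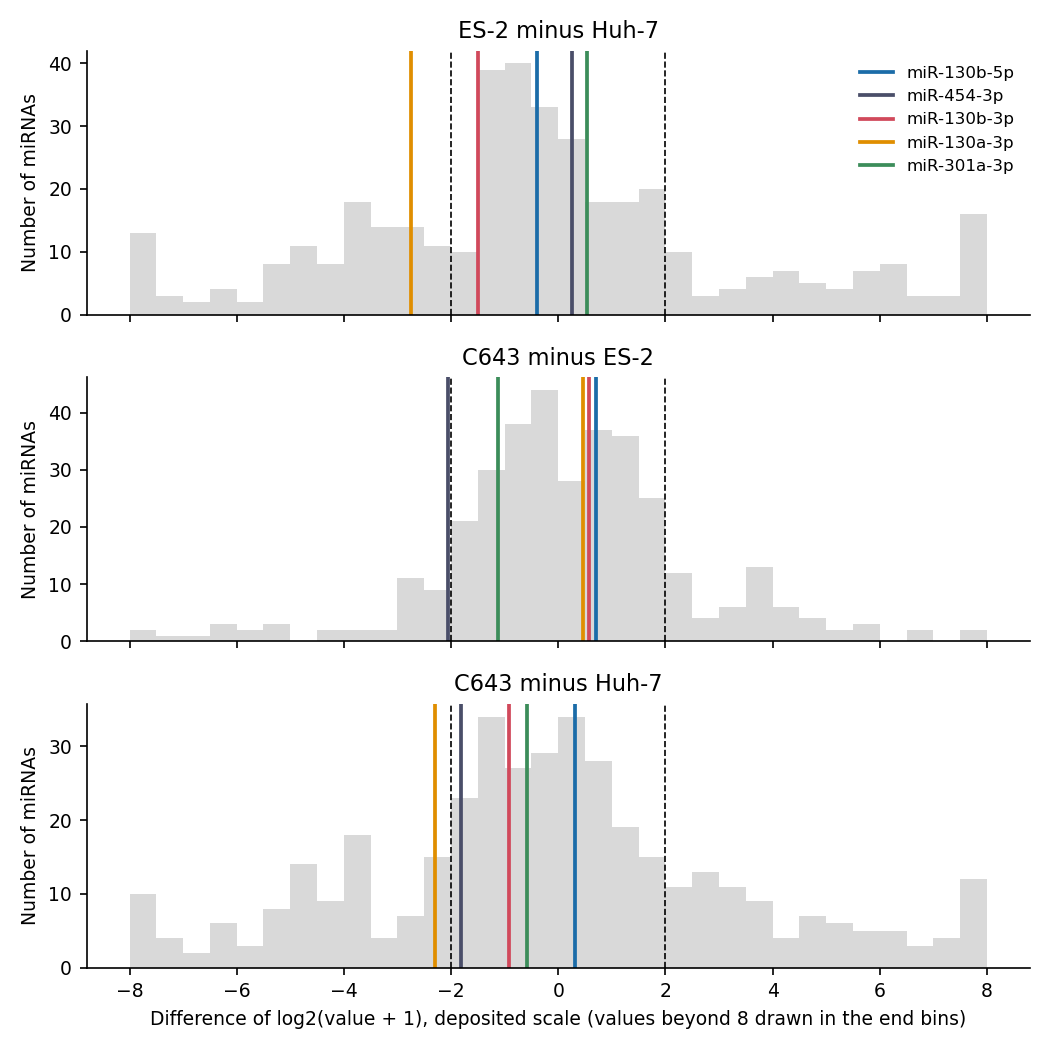
Differences of log2(deposited value + 1) for each pair of libraries, with all miRNAs compared as grey bars (number of miRNAs per bin of width 0.5) and the members as coloured lines. The dashed lines mark the 4-fold limits at -2 and 2, which 1 member passes in each pair.

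The miRNAs whose share varied most like that of each member were taken over the 3 libraries, as the Euclidean distance between centred log2 shares among 422 candidates. Candidates had to reach 10 units in at least 1 library. This describes 3 points and no more. For hsa-miR-454-3p they were miR-651-5p at 0.08, miR-19a-3p at 0.19 and miR-4449 at 0.23, against a median distance of 2.68. For hsa-miR-130b-5p they were miR-33b-3p at 0.11, miR-22-5p at 0.12 and miR-589-5p at 0.13. For hsa-miR-130b-3p they were miR-576-3p at 0.13, miR-2116-3p at 0.19 and miR-556-3p at 0.22. Of those named so far, miR-576-3p and miR-556-3p reached 10 units in Huh-7 only, and miR-4449 in ES-2 only. Their places rest in part on that filter. For hsa-miR-130a-3p the nearest had 0, 1 and 3 reads in ES-2, where reads were raised to a floor of 3, so the floor sets the pattern and they are not given. For hsa-miR-301a-3p they were miR-92a-3p at 0.18, miR-339-5p at 0.26 and miR-324-3p at 0.28. No member of the family was among the nearest of another.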

How the data were processed

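Per the labels, libraries were made from 50 ng of total RNA with a NEXTflex small RNA kit. The submitters' processing notes name cutadapt 1.14, Bowtie2 2.3.3, SAMtools 1.5, featureCounts 1.5.3, edgeR 3.18.1 and build hg38, without parameters. The annotation version and the treatment of reads that match several loci are not given in the sources used here. The authors deposited, in 2 tables, a signal for each locus that is named CPM but does not sum to 1000000. In each library 100% of values were whole multiples (within 0.001) of a unit, 0.117 for C643, 0.694 for ES-2, 0.282 for Huh-7, taken as 1 read.

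Loci were summed per miRNA. Shares are reads over the library's reads with Wilson 95% intervals. Fold intervals between shares use the normal approximation of the log ratio of reads. No fold was taken where a library had 3 reads or fewer. Two-sided exact binomial tests with Benjamini-Hochberg adjustment at 0.05 ran over all 390 miRNAs and were tested on simulated data. The simulated reads held counting error only, so they do not cover spread between libraries of the same line. Members, lists and tests were chosen with earlier results of these data known. The named miRNAs were the members, their opposite arms, miR-301b, miRNAs with the same seed (read from hsa-miR-130b-3p) or 6 of its bases within bases 1 to 9, miR-21-5p, neighbouring seed families and the 3 nearest patterns. Alternatives were other denominators, loci, scalings, pseudocounts, filters and fold limits. Python 3.11.15, scipy 1.17.1 and pandas 2.3.3 were used.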

Additional observations from a re-analysis of the deposited data

How the results depend on the processing

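No paired analysis was possible because there was a single library of every cell line. For C643, then ES-2, then Huh-7, the summed share of the 4 listed 3p arms became 0.0454%, 0.150% and 0.146% when divided by 1000000, 0.0664%, 0.181% and 0.358% without miR-21-5p in the denominator, and 0.0569%, 0.152% and 0.262% with 1 locus per mature miRNA. These changes follow from the denominators. C643 stayed lowest in each. When divided by 1000000 ES-2 lay slightly above Huh-7, by less than counting error separates. The count of members at least 4-fold apart, 1 in each comparison, became 2, 0 and 2 by share for ES-2 against Huh-7, C643 against ES-2 and C643 against Huh-7, where 56.3%, 29.02% and 52.9% of all miRNAs were called. It was 2 in each at 2-fold, against 69.5%, 58.1% and 70.4% of all, and 0 in each at 8-fold, against 37.4%, 16.0% and 36.1%. A filter at 100 left 0 of the 3 members it kept in both comparisons with Huh-7, against 45.5% and 48.3% of all, and it removed hsa-miR-130a-3p, at 94.6 units in Huh-7. A pseudocount of 10 left 0 for C643 against Huh-7, against 30.6% of all. The exact binomial test on reads called 4 of the 5 members for ES-2 against Huh-7, against 88.2% of all. Over all miRNAs, the counts of 184, 92 and 190 became 286, 205 and 314 when no filter was used. These were 29.3%, 25.3% and 31.3% of the larger number then compared, against 47.2%, 26.2% and 47.6% before. The counts were 90, 34 and 98 with a filter at 100, or 45.5%, 20.4% and 48.3%. At pseudocount 10 they were 122, 46 and 122, or 31.3%, 13.1% and 30.6%. For C643 against ES-2 the count was 204 of 351 at 2-fold and 56 of 351 at 8-fold. For ES-2 against Huh-7 the read test called 344 of 390. The arm share of miR-130b and the share of miR-301a-3p beside miR-454-3p stayed within their intervals with a pseudocount of 1 unit. Of the values for single members, 46 moved beyond counting error and 74 did not, and no difference of 4-fold or more turned its sign. Depth limited hsa-miR-130a-3p and hsa-miR-301a-3p most, with 19 and 29 reads in ES-2.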

Other observations

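A run of 6 of the family's seed bases lay within bases 1 to 9 in 11 other miRNAs with a sequence. Of these, 6 had 0 reads in each library. The others are the miR-148 and miR-152 group, whose seed CAGUGCA is shifted by 1 base, and miR-19a-3p and miR-19b-3p with the seed GUGCAAA. Summed, the 11 took 3.29% of the Huh-7 reads, against 0.235% for C643 and 0.212% for ES-2. They exceeded the summed 3p arms of the family in each line.

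miR-148a-3p had 62362 reads in Huh-7, against 4447 for C643 and 11 for ES-2, and set most of the sum in Huh-7. In the order C643, ES-2, Huh-7, miR-148b-3p varied less, with 0.117%, 0.0973% and 0.298% of reads. miR-152-3p had 0.0397%, 0.0345% and 0.0163%, and was lowest in Huh-7, where hsa-miR-454-3p was highest. miR-19a-3p held 0.00617%, 0.0244% and 0.0408%, and miR-19b-3p 0.0180%, 0.0551% and 0.0681%. Both had the order of hsa-miR-454-3p, lowest in C643 and highest in Huh-7 by share. On the deposited scale both had more units in ES-2, as hsa-miR-454-3p was, so that order rests on the scaling. No test was made of these likenesses over 3 libraries.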
